A study of Mus musculus with 26 samples.

Results

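The genes described here are the inflammatory CC chemokines that the atypical receptor ACKR2 binds and removes, namely Ccl2, Ccl3, Ccl4, Ccl5, Ccl7, Ccl8, Ccl11, Ccl12, Ccl17 and Ccl22. They were taken as a list of 10 gene symbols, matched by gene name in the monocyte and peritoneal tables and by the same Ensembl identifier in the lung table. The rule itself used no expression value, but the list was chosen with earlier results of these data known. All 10 were found among the 54375 genes of the monocyte table, the 54863 of the peritoneal table and the 57186 of the lung table. The 26 RNA samples came from naive female mice, WT or lacking ACKR2 (ACKR2-/-), whose cells were sorted by FACS. Bone marrow monocytes (gated as CD11b+ Ly6C+) and small peritoneal macrophages (SPMs, gated as CD11b+ F4/80 mid MHCII+) had 4 samples per genotype, and MHCII negative lung macrophages (gated as CD11b+ F4/80+ Ly6C-) had 5. Each monocyte and SPM sample held cells pooled from 5 mice, and how many mice made up a lung sample is not stated. The mice were 8 to 10 weeks old unless stated otherwise. WT C57BL/6J mice were purchased and ACKR2-/- mice came from a separate homozygous colony, so that genotype cannot be told apart from colony. The gates took CD45+ cells, without Ly6G+ cells in marrow and lung, and none named a T cell or NK cell marker.

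Chemokines are small secreted proteins that bind G-protein-coupled receptors and direct the movement of leucocytes. The inflammatory CC chemokines recruit monocytes, eosinophils and T cells to tissues, and macrophages are among their main sources. ACKR2 does not signal like the classical receptors. It internalises these chemokines and delivers them for degradation, so its loss acts on the protein outside the cell, whereas the values here are transcripts inside the sorted cells. In bulk samples such as these, more cells of a type and more RNA per cell cannot be told apart.

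The deposited values were raw read counts per gene, with 15450670 to 19218213 counts per sample in monocytes, 12781144 to 35400034 in SPMs and 19950019 to 29770252 in lung macrophages. A count of 0 in these libraries allows a level of up to 0.158 to 0.195 CPM (counts scaled to library size) in monocytes, 0.0773 to 0.264 in SPMs and 0.0985 to 0.160 in lung macrophages (a limit of 3 counts, for counting error only). Macrophage and monocyte markers were present in all libraries. Markers listed for other cells were present too, with a summed level of epithelial markers of 184 to 10270 CPM in the lung libraries. Neutrophil markers summed to 4702 to 41261 CPM in the monocyte libraries, and which cells transcribed them was not tested. The MHC class II gene H2-Ab1, whose product the lung gate excluded, had 253 to 1708 CPM in 9 lung libraries and 21242 CPM in WT replicate 3.

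Ackr2 itself was nearly absent from the monocytes, with 2 counts in WT replicate 3 and 0 in the other 7 libraries. In SPMs it had 5, 8, 7 and 9 counts in the WT libraries and 0 in all 4 ACKR2-/- libraries. In the lung it had 469, 436, 150, 372 and 0 counts in the WT libraries and 50, 38, 25, 7 and 7 in the ACKR2-/- libraries. The lung library labelled WT replicate 5 thus held fewer Ackr2 counts than any ACKR2-/- lung library. Since ACKR2-/- lung libraries also held Ackr2 counts, the counts alone do not settle its genotype. That library and ACKR2-/- replicate 4 had the lowest fibroblast marker sums (82.4 and 56.2 CPM, at least 201 in the other lung libraries). They also had the lowest endothelial sums (92.4 and 87.8 CPM, at least 177 in the others). Whether this bears on Ackr2 was not tested. The lung comparison of genotypes is also given without the library labelled WT replicate 5.

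8 of the 10 genes lie on chromosome 11 and Ccl17 and Ccl22 lie on chromosome 8 (coordinates of the deposited tables, which match GRCm38). Ccl2 (82035571 to 82037453), Ccl7 (82045712 to 82047525), Ccl11 (82057823 to 82062955), Ccl12 (82101845 to 82103400) and Ccl8 (82115185 to 82116799) follow each other on the plus strand of chromosome 11. Ccl5 (83525778 to 83530518, minus strand), Ccl3 (83647844 to 83649355, minus strand) and Ccl4 (83662584 to 83664683, plus strand) form a second group on that chromosome. Ccl22 (94745590 to 94751699) and Ccl17 (94810453 to 94812036) are neighbours on the plus strand of chromosome 8. All are protein coding, and Ccl2 alone overlaps another annotated gene, Gm17268.

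In WT cells, 9 of the 10 chemokines had their highest mean in the lung macrophages, where all 10 were detected in each library, and Ccl5 had its highest mean in SPMs. To compare genes, levels were expressed as normalised CPM per kilobase of gene length (CPM per kb), with scaling factors shared by all 26 libraries. In WT lung macrophages the macrophage inflammatory proteins Ccl4 (765 ± 776 CPM per kb, SD, n = 5) and Ccl3 (529 ± 202) stood first. Both overlapped between libraries, since Ccl4 lay above Ccl3 in WT replicates 1 and 3 (2088 against 868 CPM per kb in replicate 3) and below it in the other 3. The CCR2 ligands Ccl7 (139 ± 102) and Ccl2 (95.4 ± 67.4), the CCR1 ligand Ccl5 (93.6 ± 26.7), the mouse CCR2 ligand Ccl12 (89.9 ± 133) and the CCR4 ligand Ccl17 (83.8 ± 118) came next and differed from each other by less than their spread. Ccl22, also a CCR4 ligand (35.8 ± 48.6), the CCR8 ligand Ccl8 (16.7 ± 24.4) and the eosinophil attractant Ccl11 (4.14 ± 3.83) were lowest.

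The other cell types had shorter lists. WT monocytes transcribed mainly Ccl3 (69.6 ± 42.0 CPM per kb, SD, n = 4), Ccl2 (18.7 ± 12.3), Ccl4 (8.84 ± 5.31) and Ccl5 (1.45 ± 0.61). Ccl3 exceeded Ccl2 and Ccl4 in each of the 4 monocyte libraries, and the ranges of Ccl3 and Ccl2 overlapped between libraries. In WT SPMs Ccl5 was first (130 ± 63.2 CPM per kb, SD, n = 4), then Ccl2 (28.5 ± 19.0), Ccl17 (12.8 ± 6.75), Ccl4 (9.24 ± 4.79), Ccl7 (8.23 ± 5.21) and Ccl3 (5.03 ± 1.90). The lowest Ccl5 library (48.7) overlapped only with the highest Ccl2 library (53.8), and the genes after Ccl2 overlapped with each other. Ccl11 was at 0 counts in all 16 monocyte and SPM libraries.

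**Figure D1:**
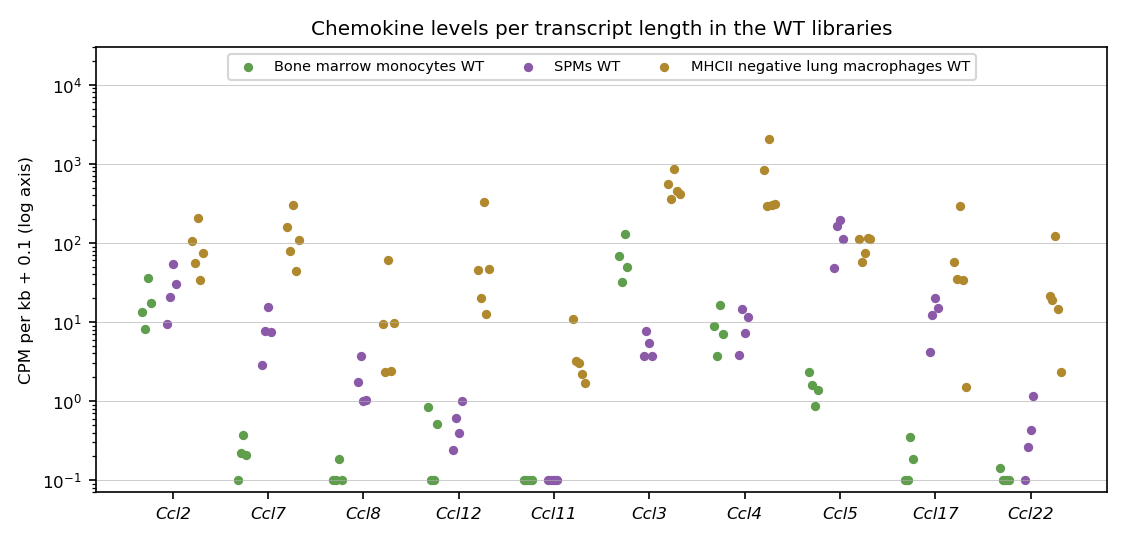
Level of each chemokine in the WT libraries, as normalised CPM per kilobase plus 0.1 on a log axis, with 1 point per library (monocytes n = 4, SPMs n = 4, lung macrophages n = 5). All lung points of Ccl3, Ccl4, Ccl7, Ccl11, Ccl12 and Ccl22 lie above those of the other cell types, SPMs and lung macrophages overlap for the other 4, and Ccl5 reached 192 CPM per kb in SPMs and 115 in the lung.

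The fit of all 26 libraries tested these differences between WT cell types, and cell type cannot be told apart there from tissue, sort and table. All 10 chemokines were called higher in lung macrophages than in monocytes, where 63.8% of all 17792 tested genes were called in either direction (edgeR, adjusted p under 0.05 and a log2 fold change over 0.5). The median log2 difference of the 10 was 8.61, against 0.34 over all genes. Ccl4 differed by 6.43 (SE 0.80), Ccl5 by 6.02 (SE 0.64), Ccl3 by 2.93 (SE 0.44) and Ccl2 by 2.35 (SE 0.55) on the log2 scale. For Ccl7, Ccl8, Ccl17, Ccl22 and Ccl11 a fold has little meaning, since WT monocytes held 9, 1, 4, 2 and 0 counts of them over 4 libraries, against 15039, 1115, 5849, 11338 and 617 counts in WT lung macrophages.

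Against SPMs, 9 of 10 were called higher in WT lung macrophages, with 62.3% of all genes called in either direction. The differences were 6.73 (SE 0.54) for Ccl3, 6.37 (SE 0.80) for Ccl4, 4.11 (SE 0.56) for Ccl7 and 1.75 (SE 0.53) for Ccl2 on the log2 scale. Ccl5 did not pass, at -0.47 (SE 0.48, adjusted p = 0.409 in edgeR). The calls of Ccl17 (2.73, SE 1.01) and Ccl8 (3.20, SE 1.17) rested on WT lung replicate 3. Without it the log2 differences were 1.33 and 1.69 and missed the threshold (edgeR, adjusted p = 0.195 and 0.164). Leaving out SPM WT replicate 1 also ended the call of Ccl17 (2.43), and leaving out SPM WT replicate 3 or 4 that of Ccl8 (3.02 and 2.97).

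Between WT SPMs and WT monocytes, 4 chemokines were called higher and 1 lower in SPMs, with 41.9% of all genes called in either direction. Ccl5 was higher by 6.49 on the log2 scale (SE 0.66). Ccl7, Ccl17 and Ccl8 were also called higher, from 9, 4 and 1 counts over the WT monocyte libraries to 258, 272 and 41 over the WT SPM libraries. Ccl3 was 14.0-fold lower (SE 0.49 on the log2 scale, edgeR adjusted p = 6.04e-07). Ccl2 (0.60, SE 0.54) and Ccl4 (0.07, SE 0.67) did not pass (edgeR, adjusted p = 0.412 and 0.995).

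These lung levels came with those of other genes of the inflammatory response. All 8 immediate early genes listed, such as Fos and Egr1, were called higher in WT lung macrophages than in either other cell type, as were 9 of 10 listed inflammatory genes against monocytes and 10 of 10 against SPMs. The lungs were digested with enzymes at 37 °C for 45 min whereas the other cells were flushed or washed out. The part of the digestion in the lung levels was not tested, and the tissues cannot be told apart from their preparation.

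In bone marrow monocytes, Ccl5 was the chemokine that differed between genotypes. Ccl5, a ligand of CCR1 and CCR3 that T cells and NK cells also make in quantity, had 43, 29, 17 and 28 counts in the WT libraries (0.946 to 2.80 CPM) and 177, 164, 305 and 338 in the ACKR2-/- libraries (9.34 to 18.0 CPM). Every ACKR2-/- library lay above every WT library, as was the case for 10.2% of the 13246 genes tested in either direction. Ccl5 rose by 2.90 on the log2 scale (SE 0.33, 7.47-fold, edgeR adjusted p = 0.00102, exact permutation p = 0.029, the smallest that 4 against 4 can give). It was 1 of 4 chemokines that passed the filter on low counts, in a comparison where 1.27% of genes were called. It stayed called under all 16 alternatives, with log2 fold changes of 2.68 to 3.20.

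Markers of T cells moved with Ccl5 in these libraries. The summed level of 8 T cell genes was 3.56 to 4.87 CPM in WT and 64.6 to 115 CPM in ACKR2-/- libraries, and all 8 were called higher, by 6.05-fold for Cd5 to 41.6-fold for Cd3e. None was at 0 in the ACKR2-/- libraries, and in WT libraries Cd3e had 0 to 3 counts. The T cell sum put 6 of the 8 libraries at the same rank as Ccl5 did. The NK cell sum overlapped between genotypes (634 to 1185 against 396 to 1524 CPM), but nearly all of it was Nkg7, a granule gene. Of the other NK cell genes, Ncr1 was at 0 counts in all 8 libraries, and Gzma, Prf1 and Eomes had 0 to 1 counts per WT library and 3 to 22 per ACKR2-/- library, below the filter. Of the dendritic cell list, 5 of 6 genes tested were positive and Ccr7 (9.02-fold) and Siglech (7.71-fold) were called higher. The dendritic cell sum overlapped between genotypes (54.8 to 78.4 against 66.4 to 173 CPM). Neutrophil genes went down in 6 of 6, with a median log2 fold change of -1.06, and mast cell or basophil genes in 5 of 5 (-1.7). None of these was called, and the neutrophil sums overlapped (14461 to 41261 against 4702 to 22823 CPM). The part of T cell, NK cell, dendritic cell or other transcripts in the Ccl5 difference was not tested, nor which cells held the listed genes.

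**Figure D2:**
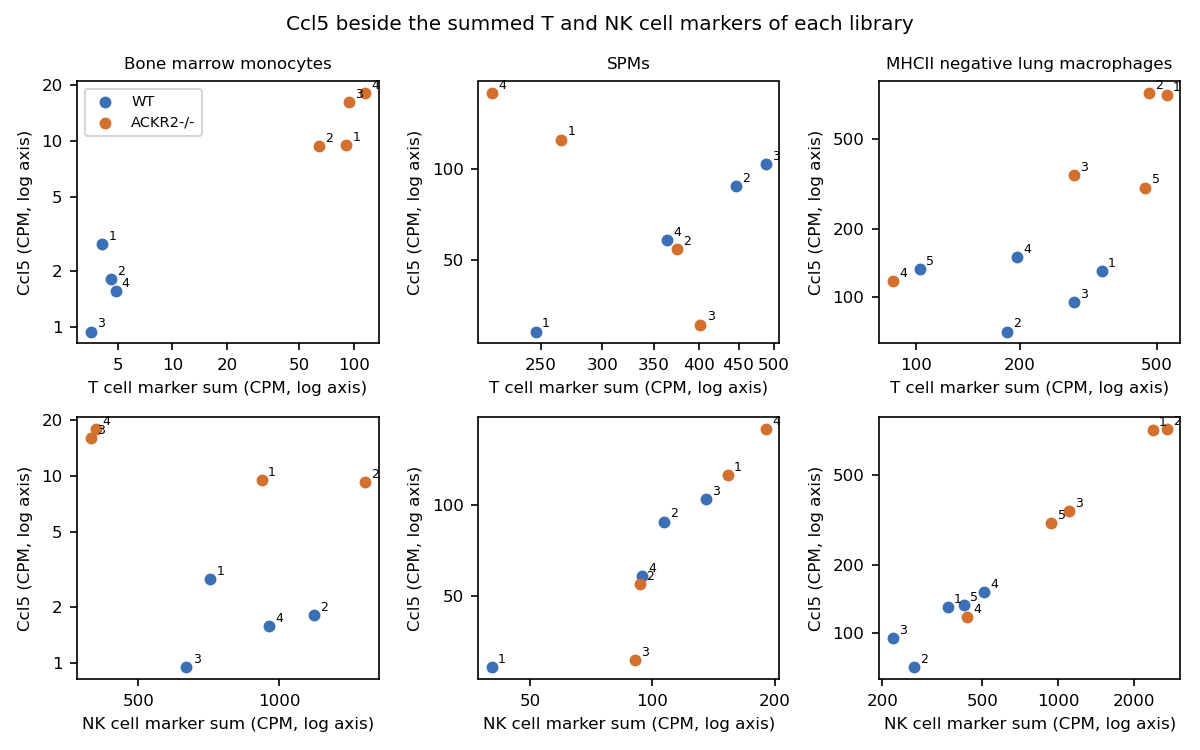
Ccl5 (CPM, log axis) against the summed level of 8 T cell markers (top) or 7 NK cell markers (bottom; CPM, log axis), with 1 point per library and its replicate number. In monocytes both genotypes separate along the T cell sum (up to 4.87 CPM in WT, at least 64.6 in ACKR2-/-), and the rank of a library by Ccl5 was its rank by the NK cell sum in 8 of 8 SPM and 5 of 10 lung libraries.

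The other 3 chemokines tested in monocytes did not pass. Ccl2, which draws monocytes out of the marrow through CCR2, had 304, 185, 952 and 439 counts in WT and 476, 115, 372 and 659 in ACKR2-/- libraries, a log2 fold change of -0.33 (SE 0.48). Ccl3 had 1054, 498, 2267 and 851 counts in WT and 1024, 325, 1050 and 1001 in ACKR2-/- libraries (-0.59, SE 0.41). Ccl4 had 116, 48, 245 and 103 against 186, 75, 130 and 110 (-0.15, SE 0.39). Their genotypes overlapped, with edgeR adjusted p between 0.483 and 0.872. WT replicate 3 was highest for all 3 and lowest for Ccl5, and without it the log2 fold changes of Ccl2 and Ccl4 became 0.22 and 0.31.

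The remaining 6 were at the limit of detection in monocytes. Over all 8 libraries Ccl12 had 20 counts, Ccl7 11, Ccl17 9, Ccl8 2, Ccl22 2 and Ccl11 0, so that a decrease or a small rise between genotypes was not detectable at this depth. Exact two-sided permutation tests on CPM gave p = 0.143 for Ccl7 and 0.543 to 1 for the other 4 with counts, and 0.029 is the smallest possible.

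**Figure D3:**
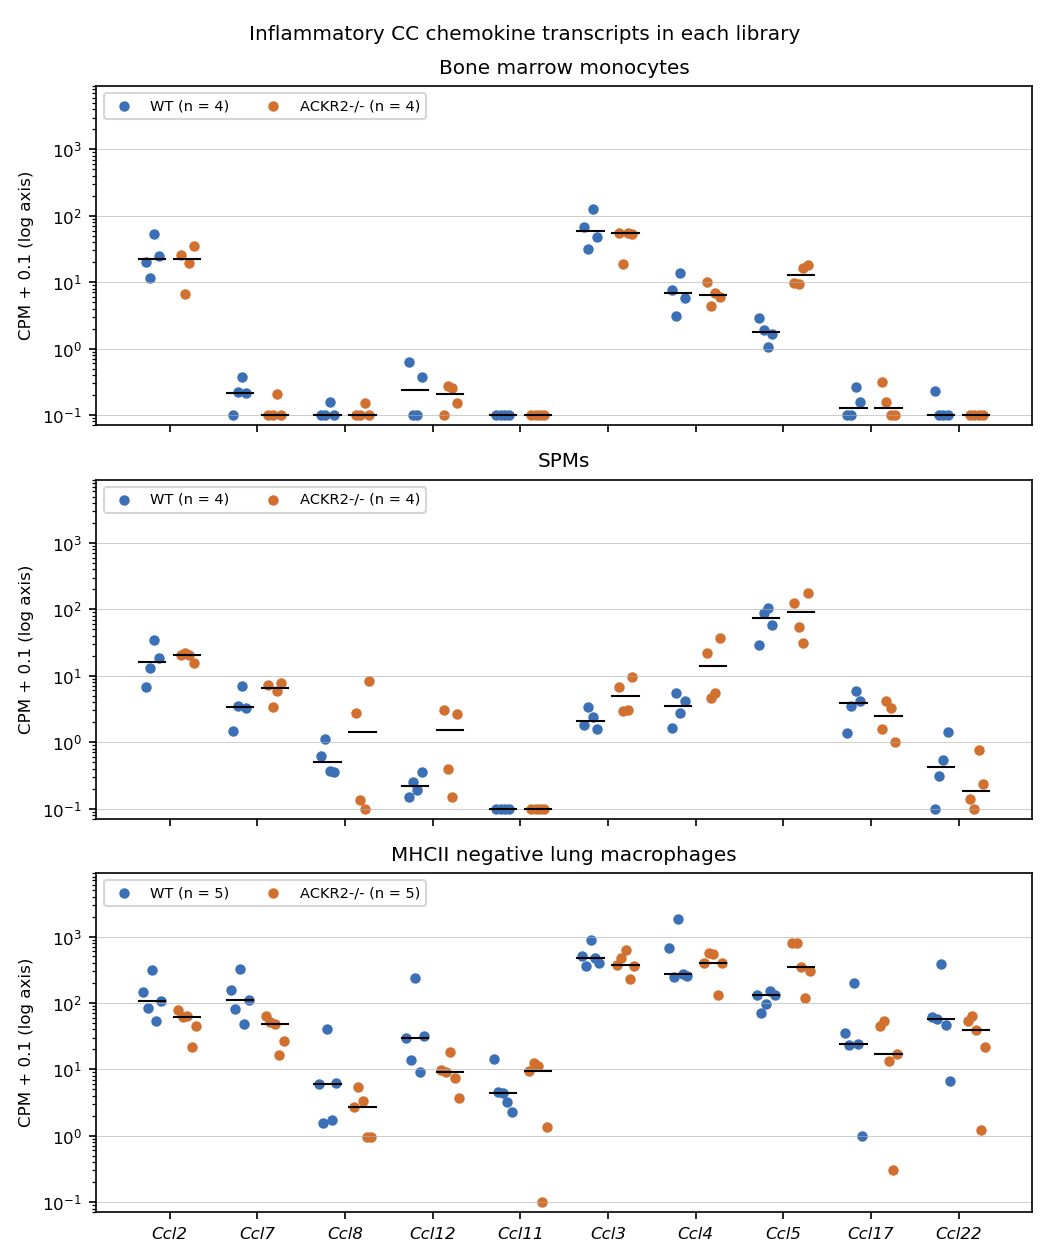
Level of the 10 chemokines in each library, as CPM plus 0.1 on a log axis, for monocytes and SPMs (n = 4 per genotype) and lung macrophages (n = 5), with the median as a bar. Ccl5 of the monocytes separates the genotypes (up to 2.80 CPM in WT, at least 9.34 in ACKR2-/-), and in the lung the highest WT point of Ccl4, Ccl8, Ccl12, Ccl17 and Ccl22 stands above all other libraries.

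In SPMs, no chemokine was called between genotypes, where 0.0462% of 12997 genes were. Of the 7 that passed the filter, 6 had a positive log2 fold change and 2 of them an unadjusted p under 0.05 in edgeR, and the median of the 7 was 0.71, against -0.05 over all genes. None had genotypes that did not overlap, which held for 3.4% of genes. The summed level of 8 SPM markers did not overlap, with 96154 to 117618 CPM in WT and 47854 to 89839 CPM in ACKR2-/- libraries, the lowest being replicate 4. The single markers differed, 7 having negative and 1 a positive log2 fold change, with a median of -0.24. Ccr2 (-1.19) and Retnla (-1.07) were lowest. Csf1r (-0.02), Itgam (-0.06) and H2-Ab1 (-0.19) changed little, and Adgre1 was at 0.55. None of these markers was called, and their part in the chemokine values was not tested. DESeq2 called 0 of the chemokines as well. Without a filter on low counts, edgeR called 1, Ccl4 (log2 fold change 2.36, adjusted p = 0.0399).

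Ccl4 and Ccl3 gave the smallest p. Ccl4 had 32, 104, 30 and 111 counts in WT SPMs (1.53 to 5.37 CPM) and 576, 122, 213 and 1367 in ACKR2-/- SPMs (4.47 to 36.8 CPM), a log2 fold change of 2.33 (SE 0.66, edgeR p = 0.00505, adjusted p = 0.788, DESeq2 adjusted p = 0.0613, exact permutation p = 0.0571). The genotypes overlapped in 1 library of each, and replicates 1 and 4 of ACKR2-/- held the high values. Ccl3 had 36, 63, 26 and 40 counts in WT and 176, 77, 115 and 356 in ACKR2-/- SPMs, with the same replicates highest (1.35, SE 0.44, edgeR p = 0.0116, adjusted p = 0.788, exact permutation p = 0.0857). Ccl5 had 606, 1707, 1187 and 1574 counts in WT and 3277, 1489, 1189 and 6630 in ACKR2-/- SPMs, and its genotypes overlapped (0.48, SE 0.52).

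The libraries fell in 1 order by Ccl5 and by NK cell markers. From 29.0 CPM of Ccl5 in WT replicate 1 to 179 in ACKR2-/- replicate 4, all 8 SPM libraries held the same rank by Ccl5 as by the NK cell sum, which ran from 40.2 to 190 CPM. The T cell sum matched the rank of Ccl5 in 1 library. Of the 6 NK cell genes tested, 6 had positive log2 fold changes and 3 an unadjusted p under 0.05 in edgeR, and none was called. The part of NK cell transcripts in Ccl5 was not tested.

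Ccl8 and Ccl12 differed mainly between libraries of 1 genotype. Ccl8, which in mice acts on CCR8, had 11, 20, 3 and 7 counts in WT and 68, 1, 0 and 310 in ACKR2-/- SPMs (2.38, SE 1.32). Ccl12 was below the filter, with 1, 3, 1 and 7 counts in WT and 77, 8, 2 and 94 in ACKR2-/- SPMs (exact permutation p = 0.171). In both genes ACKR2-/- replicates 1 and 4 stood above the rest, whereas replicates 2 and 3 lay below every WT library for Ccl8 and near the WT range for Ccl12. Without ACKR2-/- replicate 4 the log2 fold changes of Ccl8 and Ccl4 were 0.71 and 1.64. Ccl2 (0.11, SE 0.40) and Ccl7 (0.71, SE 0.44) had overlapping genotypes. Ccl17 had 27 to 111 counts in WT and 34 to 125 in ACKR2-/- SPMs (-0.59, SE 0.53), and Ccl22, with 0 to 36 counts per library, was below the filter (exact permutation p = 0.543).

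Ccl8 and Ccl12 are near neighbours that varied together, and their sequences before the gene start are shown for that reason. Over the 26 libraries, the deviations of log2 CPM from the group means had a Pearson r of 0.803 between Ccl8 and Ccl12 (0.757 without lung WT replicate 3). The monocyte libraries together held 2 counts of Ccl8 and 20 of Ccl12, and each WT SPM library 1 to 7 counts of Ccl12. RefSeq promoters (GRCm38.p6) were at hand for Ccl3, Ccl8, Ccl12, Ccl17 and Ccl22, and the 250 bases upstream of the start were searched on both strands for the TATA box (TATAAA), the AP-1 motif (TGANTCA), the STAT motif (TTC and GAA, 4 bases apart), the interferon response element (GAAA and GAAA, 2 bases apart) and the NF-kB motif. The TATA box stands in capitals at -31 of Ccl12 and -32 of Ccl8, on the strand of the gene, and 12.4% of 32851 promoters hold it in this window. The windows of Ccl8 and Ccl12, lined up at the start, share 36% of their bases, against 20.8% to 27.2% for the other pairs of the 5. The plus strand is written 5′ to 3′ for chr11:82114935-82115184 (Ccl8) and chr11:82101595-82101844 (Ccl12).
Ccl8: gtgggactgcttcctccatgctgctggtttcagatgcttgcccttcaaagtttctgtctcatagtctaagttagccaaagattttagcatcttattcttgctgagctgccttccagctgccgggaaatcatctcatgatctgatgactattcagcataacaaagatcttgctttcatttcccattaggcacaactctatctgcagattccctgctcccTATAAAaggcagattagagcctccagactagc
Ccl12: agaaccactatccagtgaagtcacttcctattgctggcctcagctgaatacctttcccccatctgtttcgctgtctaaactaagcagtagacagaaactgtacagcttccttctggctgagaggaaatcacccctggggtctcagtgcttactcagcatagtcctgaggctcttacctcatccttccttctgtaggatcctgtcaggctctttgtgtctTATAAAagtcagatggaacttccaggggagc

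The STAT motif was found once, at -154 to -145 of Ccl17, and 5.85% of promoters hold it. It is in capitals in the plus strand of chr8:94810203-94810452, shown because STAT6 is a known activator of this gene.
Ccl17: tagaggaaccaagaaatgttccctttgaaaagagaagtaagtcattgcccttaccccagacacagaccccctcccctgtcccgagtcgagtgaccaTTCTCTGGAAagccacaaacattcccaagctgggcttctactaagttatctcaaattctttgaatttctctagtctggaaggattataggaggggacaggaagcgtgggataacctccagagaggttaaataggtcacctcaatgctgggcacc
None of the 5 windows held the AP-1 motif, the interferon response element or the NF-kB motif in these letters, which 6.75%, 2.98% and 7.25% of promoters do.

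In MHCII negative lung macrophages, 0 of the 10 chemokines were called by edgeR, in a comparison where 0% of 16824 genes were called, 209 being higher and 290 lower at an unadjusted p under 0.05. DESeq2 called 0.0892% of the genes, 15 in number, and Ccl5 was among them. Of the 10, 8 had negative and 2 positive log2 fold changes, with a median of -1.27 against -0.04 over all genes, and 5 had an unadjusted p under 0.05 in edgeR. None had genotypes that did not overlap, which held for 0.446% of genes. Without WT replicate 3 the split was 6 negative to 4 positive and the median -0.14. Without the library labelled WT replicate 5 it was 8 to 2 with a median of -1.48. The log2 fold changes were then 2.09 for Ccl5, -1.46 for Ccl2, -1.89 for Ccl7, -2.92 for Ccl12 and -2.28 for Ccl8. They were -0.42 for Ccl3, -0.92 for Ccl4, -1.49 for Ccl17, -1.93 for Ccl22 and 0.073 for Ccl11, with none called in edgeR, and WT lung macrophages still had 10 calls against monocytes and 9 against SPMs.

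Ccl5 again had the smallest p of the 10. It had 2753, 1737, 1834, 3850 and 2641 counts in WT (70.4 to 151 CPM) and 23915, 22023, 8032, 2924 and 5742 in ACKR2-/- lung macrophages (118 to 796 CPM). ACKR2-/- replicate 4 lay within the WT range and the other 4 above it. The log2 fold change was 2.02 (SE 0.46, edgeR p = 0.000979, adjusted p = 1.00, DESeq2 adjusted p = 0.0132, exact permutation p = 0.0317), and it ranged from 1.75 to 2.33 over the alternatives.

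NK cell markers moved with Ccl5 here. Their summed level was 220 to 509 CPM in WT and 434 to 2699 CPM in ACKR2-/- libraries, and ACKR2-/- replicate 4 was again within the WT range. The fold changes of the 7 NK cell genes were 2.42 to 4.60, with Ccl5 at 4.06, and DESeq2 called Nkg7, Gzma and Klrb1c. No NK cell marker was at 0 in any lung library. The T cell sum overlapped between genotypes (102 to 346 against 85.3 to 535 CPM). All 8 T cell genes were positive, with a median log2 fold change of 0.70 and 1 at an unadjusted p under 0.05 in edgeR. None of them was called. The part of NK cell or T cell transcripts in the Ccl5 values was not tested.

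The CCR2 ligands were lower in the ACKR2-/- lung libraries and did not pass. Ccl7 had 3257, 2028, 6347, 1242 and 2165 counts in WT and 1947, 1449, 1104, 402 and 504 in ACKR2-/- libraries, a log2 fold change of -1.80 (SE 0.51, edgeR p = 0.00445, adjusted p = 1.00, exact permutation p = 0.0238). Ccl2 had 3107, 2045, 6092, 1342 and 2098 against 2419, 1704, 1500, 531 and 831 counts (-1.37, SE 0.47, edgeR p = 0.0137, adjusted p = 1.00, exact permutation p = 0.0476). WT replicate 3 was highest for both, at 328 CPM of Ccl7 and 315 of Ccl2, and ACKR2-/- replicate 4 was lowest, at 16.2 and 21.4. Without WT replicate 3 the log2 fold changes were -1.24 and -0.83.

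Ccl12 and Ccl8 depended on WT replicate 3 more than these. Ccl12 had 619, 343, 4538, 233 and 619 counts in WT and 296, 250, 421, 181 and 68 in ACKR2-/- libraries (-2.73, SE 0.85, edgeR p = 0.00791, adjusted p = 1.00, exact permutation p = 0.0556). Ccl8 had 124, 36, 794, 41 and 120 counts in WT and 78, 149, 76, 21 and 16 in ACKR2-/- libraries (-2.11, SE 0.92, edgeR p = 0.0424, adjusted p = 1.00, exact permutation p = 0.238). Without WT replicate 3 these became -1.12 and -0.53.

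The macrophage inflammatory proteins Ccl3 and Ccl4, the most abundant of the group, had overlapping genotypes. Ccl3 ranged from 355 to 892.1 CPM in WT and from 231 to 631 CPM in ACKR2-/- libraries (-0.35, SE 0.30). Ccl4 ranged from 249 to 1849 CPM in WT and from 131 to 557 CPM in ACKR2-/- libraries (-0.71, SE 0.59). Without WT replicate 3, Ccl3 was at -0.06 and Ccl4 at 0.17.

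The CCR4 ligands Ccl17 and Ccl22, which attract Th2 and regulatory T cells, spread widely between libraries of 1 genotype. Ccl17 had 750, 579, 3900, 602 and 18 counts in WT and 1344, 1453, 308, 5 and 321 in ACKR2-/- libraries (-1.16, SE 1.17). Ccl22 had 1282, 1388, 7351, 1188 and 129 counts in WT and 1633, 1769, 914, 28 and 399 in ACKR2-/- libraries (-1.62, SE 1.00). WT replicate 3 was highest for both, and ACKR2-/- replicate 4 and the library labelled WT replicate 5 were lowest. Without WT replicate 3 the values were 0.31 and -0.22.

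Ccl11, the eosinophil attractant eotaxin, followed another order. It had 303, 109, 82, 80 and 43 counts in WT and 284, 347, 255, 0 and 24 in ACKR2-/- libraries (0.27, SE 0.99). The low libraries, ACKR2-/- replicates 4 and 5 and the library labelled WT replicate 5, also had the lowest fibroblast marker sums, at 56.2, 201 and 82.4 CPM against 398 to 885 CPM in the other 7. The same libraries had the lowest mesothelial sums (0.84, 4.63 and 2.47 CPM against 16.1 to 62.0) and epithelial sums (184, 3356 and 213 CPM against 3466 to 10270). The lung gate took CD45+ cells, and transcripts of these cell types were still present. The part of fibroblast, mesothelial or epithelial transcripts in Ccl11 was not tested.

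Markers of several cell types stood apart in the libraries named above. WT replicate 3 had 1142 CPM of dendritic cell markers and 656 of platelet markers, against 35.4 to 283 and 46.2 to 175 CPM in the other 9. It also had 1949 CPM of B cell markers and 5041 of lung interstitial macrophage markers, against 125 to 670 and 1547 to 3244 CPM in the other 9. The library labelled WT replicate 5 and ACKR2-/- replicate 4 had 213 and 184 CPM of epithelial markers against 3356 to 10270 in the other 8. With both of these left out, the median log2 fold change of the 10 chemokines was -1.22. The part of macrophage content and of other cell types in the chemokine values of these libraries was not tested.

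**Figure D4:**
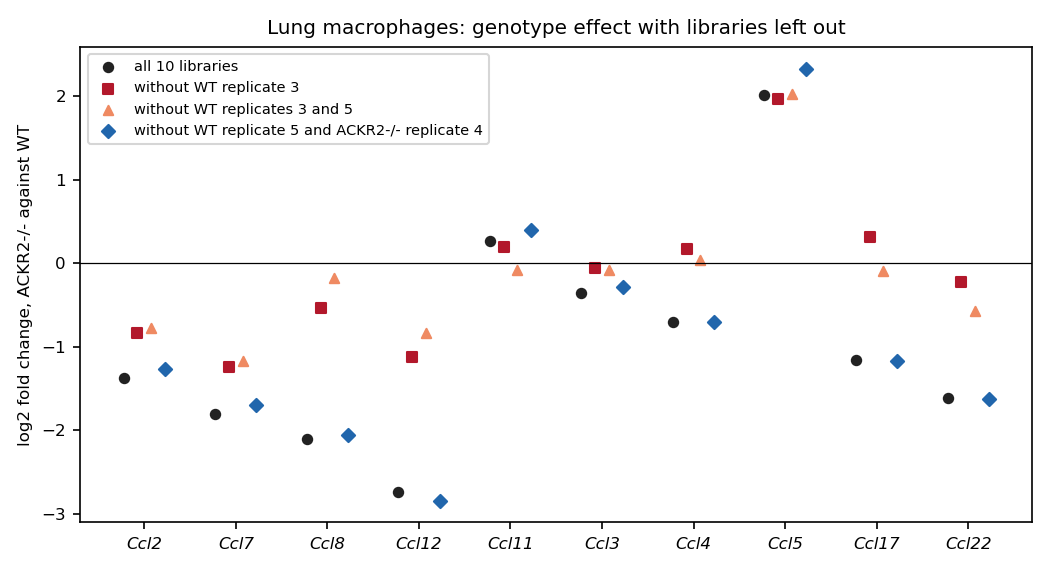
Log2 fold change of each chemokine between ACKR2-/- and WT lung macrophages, with all 10 libraries and with libraries left out. The sets left out were WT replicate 3, WT replicates 3 and 5, and WT replicate 5 with ACKR2-/- replicate 4. Over these Ccl5 lay between 1.97 and 2.33, whereas Ccl4 and Ccl17 move from -0.71 and -1.16 to 0.17 and 0.31 without WT replicate 3.

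The genotype effects themselves were compared between cell types. No chemokine was called in any of the 3 differences, where 0.253% of genes were called for SPMs minus monocytes, 0.152% for lung macrophages minus monocytes and 0.0393% for lung macrophages minus SPMs. The effect on Ccl5 in SPMs was below that in monocytes by 2.36 on the log2 scale, a difference of -2.36 (SE 0.77, edgeR adjusted p = 0.341). Between lung macrophages and monocytes it differed by -0.84 (SE 0.72, edgeR adjusted p = 0.943). Thus the call of Ccl5 in monocytes alone was not shown to be particular to them.

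For lung macrophages against SPMs, 7 of the chemokines had an unadjusted p under 0.05, of them 6 negative. Lung minus SPM was -3.06 for Ccl4 (SE 0.89), -4.52 for Ccl8 (SE 1.53), -2.55 for Ccl7 (SE 0.69) and -1.76 for Ccl3 (SE 0.59), with edgeR adjusted p of 0.454 to 0.630, and -1.52 for Ccl2 (SE 0.72). Without SPM ACKR2-/- replicate 4 the value of Ccl8 was -2.83, and without lung WT replicate 3 that of Ccl4 was -2.25. Ccl12 differed by -6.00 (SE 1.41, edgeR adjusted p = 0.236), and DESeq2 called it (adjusted p = 0.0413) on 12 counts in the 4 WT SPM libraries. Ccl5 was the member with a positive value at an unadjusted p under 0.05, at 1.52 (SE 0.69).

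**Figure D5:**
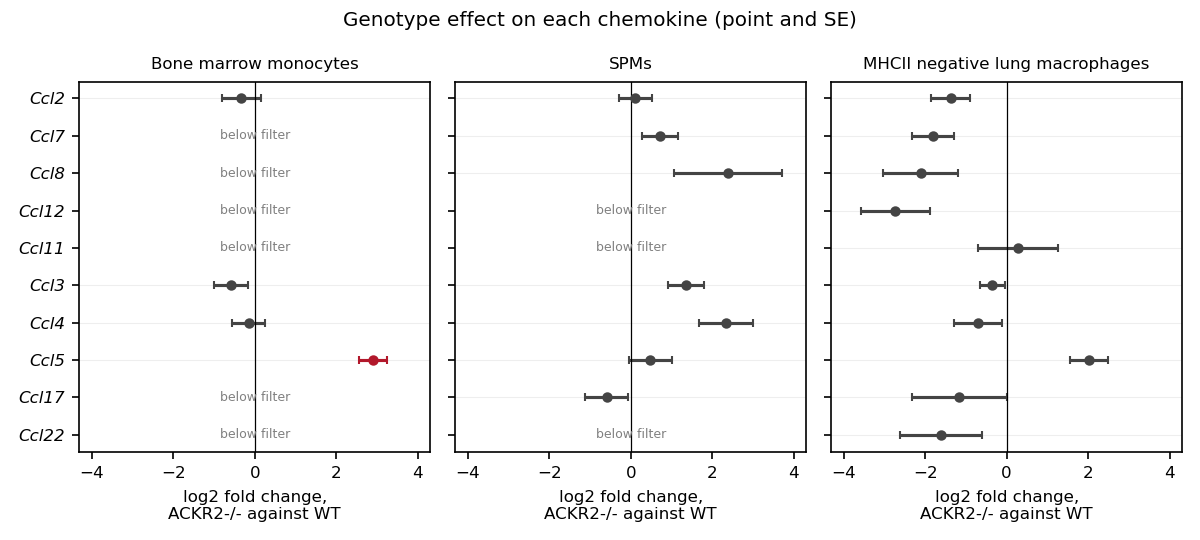
Log2 fold change of each chemokine between ACKR2-/- and WT (point) with its SE (bar) in edgeR, by cell type, with the called gene in red. Ccl5 in monocytes (2.90) is the single call, SPM values lie mostly above 0 (0.11 to 2.38, apart from Ccl17 at -0.59) and lung values mostly below it.

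Of the receptors of these chemokines, Ccr1 was called higher in ACKR2-/- monocytes, by 1.21 on the log2 scale (SE 0.15, edgeR adjusted p = 0.00129). In SPMs Ccr2 was at -1.19 (SE 0.36, edgeR adjusted p = 0.788) and in lung macrophages Ccr1 was at -1.63 (SE 0.68, edgeR adjusted p = 1.00), and neither passed. Apart from the 10, no CC chemokine on a list of 9 others was called between genotypes in any cell type. Their medians were -0.07 in monocytes, -0.37 in SPMs and 0.28 in lung macrophages. Ccl24 had the smallest p of them in SPMs, at -0.89 (SE 0.30, edgeR adjusted p = 0.788).

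No inflammatory or immediate early gene on the lists was called between genotypes. In monocytes all 6 inflammatory genes tested were negative, with a median of -0.41. Of 8 inflammatory genes tested in SPMs, 8 were positive and 0 called, with a median of 0.72, and Cxcl10 had the smallest p (3.27, SE 0.93, edgeR adjusted p = 0.788). In the lung 9 of 10 were negative and 0 called, with a median of -0.79, and Cxcl2 had the smallest p (-1.28, SE 0.42, edgeR adjusted p = 1.00). Of the immediate early genes, 6 of 7 were positive in SPMs and 8 of 8 negative in the lung, with medians of 0.36 and -0.49.

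For each chemokine, the genes whose deviations from the 6 group means were most alike over the 26 libraries were found among 17792 genes. Ccl5 went with the NK cell receptor gene Klra9 (Pearson r = 0.886), with AW112010 (0.835) and with Klrg1, a receptor of NK and T cells (0.83). Ccl3 went with the transcription factor gene Klf6 (0.863), Ccl4 (0.845) and the neutrophil attractant Cxcl2 (0.833). Ccl4 went with the chemokine Cxcl16 (0.902) and F11r (0.870).

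Ccl2 went with Cd14, the lipopolysaccharide co-receptor of monocytes (0.835), Gpr141b (0.781) and Slc9a7 (0.780). Ccl7 went with Klhl6 (0.811), Chst7 (0.790) and Apoo (0.790). Ccl8 went with Aoah, which inactivates lipopolysaccharide (0.903), the interferon gamma induced Cxcl9 (0.834) and Irf8 (0.83), and Ccl12 with Aoah (0.854), Ms4a7 (0.849) and Cxcl16 (0.818).

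Ccl17 went with Rtl8c (0.962), Mras (0.929) and Kazald1 (0.926), and Ccl22 with Paqr4 (0.886), Smyd2 (0.863) and Ccr1 (0.862). Ccl11 went with Fam180a (0.955), St8sia2 (0.949) and Gm45774 (0.942), over libraries of which all 16 of monocytes and SPMs and 1 of the lung hold no count of it. Ccl7, Ccl8, Ccl12, Ccl17 and Ccl22 each had 20 counts or fewer over the monocyte libraries. Among the chemokines, the closest pairs were Ccl3 with Ccl4 (0.845), Ccl17 with Ccl22 (0.804) and Ccl8 with Ccl12 (0.803). Ccl4 with Ccl8 (0.796) and Ccl2 with Ccl7 (0.739) came next. All of these but Ccl4 with Ccl8 are neighbours on a chromosome. Other neighbours were less alike, such as Ccl7 with Ccl11 (0.461) and Ccl11 with Ccl12 (0.134). Ccl11 with Ccl17, on different chromosomes, had 0.696. These values describe libraries that share depth, sort and preparation within a group. Without lung WT replicate 3 the closest pairs above were at 0.839, 0.764, 0.757, 0.749 and 0.684, and Ccl11 with Ccl17 was at 0.778.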

How the data were processed

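RNA of 26 sorted samples was amplified by the SMARTer method from poly-A RNA and read as paired ends. The values the authors deposited were raw read counts by gene, 1 table per cell type and 1 column per sample. The submitters' processing notes list HISAT2 2.0.5, featureCounts 1.5.0-p3, DESeq2 and mm10 without saying which served which table. The lung table ends in 5 summary lines in another counter's format (56.3% of its counts, of them 45.1% to 48.9% of a sample in reads on no feature), which were kept out of library sizes and tests. The monocyte and SPM tables also gave gene positions and lengths, which were used as deposited, and the lung table was matched by Ensembl identifier (50104 shared).

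Counts were analysed in R 4.3.3 with edgeR 4.0.16: filterByExpr (minimum count 10, total 15), TMM scaling and the quasi-likelihood test with Benjamini-Hochberg adjustment over all genes tested, per cell type for genotypes and in 1 fit of 26 samples for the rest. Calls needed an adjusted p below 0.05 together with a log2 fold change beyond 0.5 in either direction. The SE is the log2 fold change divided by the root of the F statistic. CPM values use TMM-scaled totals. Members and lists were chosen with earlier results of these data known. All 10 chemokines and Ackr2 were named, genes of the pathway lists that were called or had up to 3 of the smallest p, markers that moved with a chemokine, and the 3 genes most like each chemokine. All 44 replicate pairs differed by more than counting error (chi-square over its degrees of freedom at least 10.57). Nothing says whether samples were sorted on separate days, so p-values measure the spread between these samples, which may in part be technical. Alternatives were DESeq2 1.42.0, RLE factors, other filters, the robust fit, no fold threshold, the 26-sample fit, a block and left-out libraries, and leaving out lung WT replicate 5 with ACKR2-/- replicate 4 was chosen after seeing the data. The fits were tested on simulated data. Counts without molecular identifiers include PCR copies, so limits cover counting error only. Some listed genes and gate markers are not reported here.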

Additional observations from a re-analysis of the deposited data

Results flagged for a closer look

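In 44 sets of libraries of 1 cell type and genotype, the highest or lowest value of a chemokine was set against the gap to its nearest neighbour (Dixon's test at 95%), and 8 stood apart. Chance gives about 1 in 20 for normally distributed values in independent sets. The CPM were not log transformed and chemokines of a library varied together, so that rate is no measure for the 8. Of the 8, 6 were WT replicate 3 of the lung macrophages as the highest library. It had 892.1 CPM of Ccl3 (next 510), 1849 of Ccl4 (next 672), 41.0 of Ccl8 (next 6.04), 235 of Ccl12 (next 31.2), 202 of Ccl17 (next 35.4) and 380 of Ccl22 (next 60.5). Ccl2 and Ccl7 were also highest there without standing apart by this test. This is the library with 21242 CPM of H2-Ab1, and the part of that difference was not tested.

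Ccl11 stood apart in lung WT replicate 1, with 14.3 CPM against 4.42 in the next library. Ccl3 was low in ACKR2-/- replicate 2 of the monocytes, with 18.5 CPM against 53.2 in the next. Ccl2 was also lowest there, at 6.55 CPM.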

How the results depend on the processing

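The counts of chemokines called between genotypes were 1 in monocytes, 0 in SPMs and 0 in lung macrophages, and leaving out any single library kept them at 1, 0 and 0. DESeq2 raised the lung count to 1 and that of lung macrophages minus SPMs to 1, and no filter on low counts raised the SPM count to 1. Over all genes, DESeq2 called 494 in monocytes, 33 in SPMs, 15 in lung macrophages, 130 for SPMs minus monocytes, 109 for lung minus monocytes and 22 for lung minus SPMs, against 168, 6, 0, 45, 27 and 7 in edgeR. No filter gave 346 in monocytes, 52 in SPMs and 42 for lung minus monocytes, and the 26-sample fit gave 1 in the lung. Leaving out 1 library gave 76 (without WT replicate 1; 99 or fewer without any other WT library or ACKR2-/- replicate 4) to 413 (without ACKR2-/- replicate 3) in monocytes, 3 (without ACKR2-/- replicate 2) to 8 in SPMs and 29 (without monocyte WT replicate 1) to 58 for SPMs minus monocytes. It gave 13 (without monocyte WT replicate 3; 14 and 15 without 1 and 2) to 53 (without lung WT replicate 5) for lung minus monocytes and 4 (without SPM ACKR2-/- replicate 1 or WT replicate 3) to 7 for lung minus SPMs. The cause of these changes was not tested.

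Deviations of same-number samples correlated over 0.1 in 1 of 4 monocyte pairs, 0 of 4 SPM pairs and 2 of 5 lung pairs. They correlated best with their own number in 1, 0 and 1. The numbers thus did not pair the samples throughout, and whether some samples were handled together was not tested. In the lung, number 1 had r = 0.643 and number 5 had 0.248. The epithelial marker Sftpc had 8610, 7560, 4631, 3429 and 207 CPM in lung WT replicates 1 to 5. In lung ACKR2-/- replicates 1 to 5 it had 10145, 7655, 4763, 181 and 3319 CPM. The replicate block gave 17 for lung minus monocytes. It turned Ccl11 in the lung to -0.37 and Ccl17 in lung minus SPMs to 0.47, and ended the call of Ccl8 between WT lung macrophages and SPMs (2.99). It changed no other call of a chemokine. With lung WT replicates 3 and 5 left out together, Ccl11 was at -0.078 and Ccl4 at 0.045 in the lung, Ccl17 in lung minus SPMs at 0.43 and Ccl4 in lung minus monocytes at 0.16. The calls of Ccl17 (1.73), Ccl2 (1.21) and Ccl8 (1.36) between WT lung macrophages and SPMs were then lost.

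Signs of uncalled chemokines turned when 1 library was left out, with ranges of -0.066 to 0.97 (Ccl11), -1.61 to 0.31 (Ccl17) and -0.92 to 0.17 (Ccl4) in the lung, -0.17 to 0.62 (Ccl2) in SPMs, and -0.66 to 0.22 (Ccl2) and -0.41 to 0.31 (Ccl4) in monocytes. The ranges were -0.25 to 0.52 for Ccl4 between WT SPMs and monocytes, -1.02 to 0.83 for Ccl17 in lung minus SPMs, -0.027 to 1.01 for Ccl2 in SPMs minus monocytes, and -0.21 to 0.52 (Ccl3) and -0.98 to 0.30 (Ccl4) in lung minus monocytes. Of such fold changes of chemokines, 1155 kept their sign and their side of the threshold, 16 turned and 5 lost a call, and under the other settings 365 kept both, 6 turned, 4 lost and 2 gained a call. Depth limits the 6 chemokines at 20 counts or fewer in monocytes, where a decrease or a small rise could not have been seen.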
